A study of Mus musculus with 2 samples.

Results

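The genes described here are 42 mouse genes of mitosis and the spindle checkpoint, chosen by name and found by Ensembl identifier among the 43346 mouse genes of the deposited tables. The series measured poly(A)+ RNA longer than 200 nucleotides, cleared of ribosomal RNA, in the ovary of 8-week-old female C57BL/6J mice. It holds 1 group of 2 stranded libraries, replicate 2 and replicate 1, with 76 bases read from each end. The labels name no treatment or engineered allele, and they call the libraries biological replicates from littermates while citing the same donor record for both. The spread between the libraries may therefore be technical in part, and no comparison between conditions exists.

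Mitosis is driven by Cdk1 bound to A-type and B-type cyclins and by the Aurora and Polo kinases. The spindle checkpoint holds Cdc20, the activator of the anaphase-promoting complex, until every kinetochore is attached to the spindle. In the adult ovary the granulosa cells of growing follicles divide, whereas oocytes rest in meiotic prophase. Many mitotic genes are known to share promoter elements, the CCAAT box bound by NF-Y and the CHR (cell cycle genes homology region, TTTGAA or TTTAAA) bound by the DREAM and MuvB complexes.

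The promoters of the members are shown first because these elements recur in them. RefSeq promoters (GRCm38.p6, 250 bases before to 50 bases after the start) matched 35 of the 42 genes, and those of Aurkb, Ccna2, Cdc25c, Incenp, Kif20a, Spc24 and Tpx2 are not shown. CCAAT was searched on both strands (also as ATTGG), as were TTTGAA (also as TTCAAA) and TTTAAA, which reads the same on both strands. An overlapping CCAAT box and CHR motif were both counted. CCAAT stood in 27 of the 35 promoters (77.1%), against 38% of all 27025 promoters in the table. TTTGAA or TTTAAA stood in 29 of the 35 (82.9%), against 27.9% of all promoters. In the 250 bases before the start alone it stood in 17 of the 35 (48.6%), against 25.5% of all promoters. Both kinds of motif stood in 25 of the 35 (71.4%), against 11% of all promoters, and at least 2 CCAAT boxes in 19 (54.3%), against 12.1%. Mad2l1, Nuf2, Nusap1 and Pttg1 held neither in this window. The RefSeq starts did not always match the gene starts of the GENCODE M21 annotation. The whole Mad2l1 window lies upstream of that gene start (66535390). The starts used for Pttg1, Kif2c and Cdca8, among others, lie inside the gene. A motif missing here was not searched for at other starts. A match is a description of letters and not a site of binding.

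The windows below run from 120 bases before to 30 bases after the start, 5′ to 3′ on the gene's strand, with every motif match in capitals. They were chosen after the motif positions were seen, as abundant members that hold both motifs. They are Ube2c (chr2:164769809-164769958, plus strand), Cdc20 (chr4:118437314-118437463, minus strand), Cdk1 (chr10:69352883-69353032, minus strand), Ccnb1 (chr13:100786457-100786606, minus strand), Ccnb2 (chr9:70421525-70421674, minus strand), Plk1 (chr7:122159315-122159464, plus strand) and Prc1 (chr7:80294331-80294480, plus strand). Mad2l1 (chr6:66535101-66535250, plus strand) is given as a member with neither motif in its RefSeq window.
Ube2c: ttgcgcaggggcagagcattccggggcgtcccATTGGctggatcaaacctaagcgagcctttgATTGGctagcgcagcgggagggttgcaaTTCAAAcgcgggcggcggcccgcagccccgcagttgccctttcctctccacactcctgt
Cdc20: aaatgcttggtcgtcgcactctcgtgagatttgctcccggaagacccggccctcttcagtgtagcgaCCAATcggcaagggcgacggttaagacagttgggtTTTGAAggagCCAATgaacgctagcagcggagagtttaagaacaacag
Cdk1: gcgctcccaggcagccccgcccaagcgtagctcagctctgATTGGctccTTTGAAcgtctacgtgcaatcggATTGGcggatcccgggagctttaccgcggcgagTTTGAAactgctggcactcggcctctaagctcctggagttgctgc
Ccnb1: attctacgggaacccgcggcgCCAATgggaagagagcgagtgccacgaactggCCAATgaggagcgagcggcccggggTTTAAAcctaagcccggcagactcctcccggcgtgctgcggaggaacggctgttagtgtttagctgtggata
Ccnb2: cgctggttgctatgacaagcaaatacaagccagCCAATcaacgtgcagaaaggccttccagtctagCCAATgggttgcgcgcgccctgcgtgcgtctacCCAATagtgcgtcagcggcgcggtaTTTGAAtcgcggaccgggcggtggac
Plk1: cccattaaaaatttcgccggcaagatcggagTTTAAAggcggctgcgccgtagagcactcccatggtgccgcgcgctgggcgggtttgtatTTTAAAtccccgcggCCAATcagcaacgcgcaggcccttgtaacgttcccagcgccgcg
Prc1: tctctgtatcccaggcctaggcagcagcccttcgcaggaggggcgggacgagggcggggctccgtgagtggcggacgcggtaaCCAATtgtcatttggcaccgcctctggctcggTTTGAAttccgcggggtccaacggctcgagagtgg
Mad2l1: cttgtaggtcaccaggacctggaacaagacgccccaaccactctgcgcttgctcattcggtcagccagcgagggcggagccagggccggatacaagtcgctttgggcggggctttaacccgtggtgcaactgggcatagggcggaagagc
In Cdc20, Ccnb1, Ccnb2 and Prc1 the CHR motif lies downstream of at least 1 CCAAT box on the gene's strand. In Ube2c both CCAAT boxes of the printed stretch are read on the opposite strand as ATTGG, and Plk1 carries TTTAAA 2 times before its CCAAT box.

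Levels are given in TPM (a share of the library's transcripts, scaled for transcript length), and differences as the log2 ratio of replicate 2 over replicate 1 from read counts. The libraries held 34930872 gene counts in replicate 2 and 41124064 in replicate 1. Ovarian markers fit the tissue label: Inha stood at 6279 TPM in replicate 2 and 7396 TPM in replicate 1, Foxl2 at 52.7 TPM in replicate 2 and 46.9 TPM in replicate 1 and Amh at 334 TPM in replicate 2 and 299.6 TPM in replicate 1, all granulosa genes. The oocyte genes Zp3 and Gdf9 stood at 151 TPM and 84.0 TPM in replicate 2 and at 186 TPM and 107 TPM in replicate 1. The reads of each gene were compared by an exact binomial test (two-sided, Benjamini-Hochberg adjusted at 0.05 over 15939 genes), which sets these 2 libraries side by side and has no replicate check. It called 27% of all genes lower and 29.1% higher in replicate 2, and the median log2 ratio was -0.01.

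The mitosis genes were expressed at modest levels and were mostly lower in replicate 2. Of the 42, 34 reached 1 TPM in both libraries, and the summed level of all 42 was 512.8 TPM in replicate 2 and 704.1 TPM in replicate 1. Of the 40 with enough counts to test, 29 (72.5%) were lower in replicate 2, beside the 27% of all genes, and 1, Ccna2, was higher, beside 29.1%. Past 1.5-fold, 15 were lower (37.5%), beside 6.49% of all genes, and 0 were higher, beside 8.8%. The log2 ratio was below 0 for 37 of the 40 (92.5%), beside 50.8% of all genes, and its median was -0.51. In bulk tissue, fewer dividing cells and less of these RNAs per cell cannot be told apart. Cenph and Ndc80 had mean counts below 20 and were not tested.

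**Figure D1:**
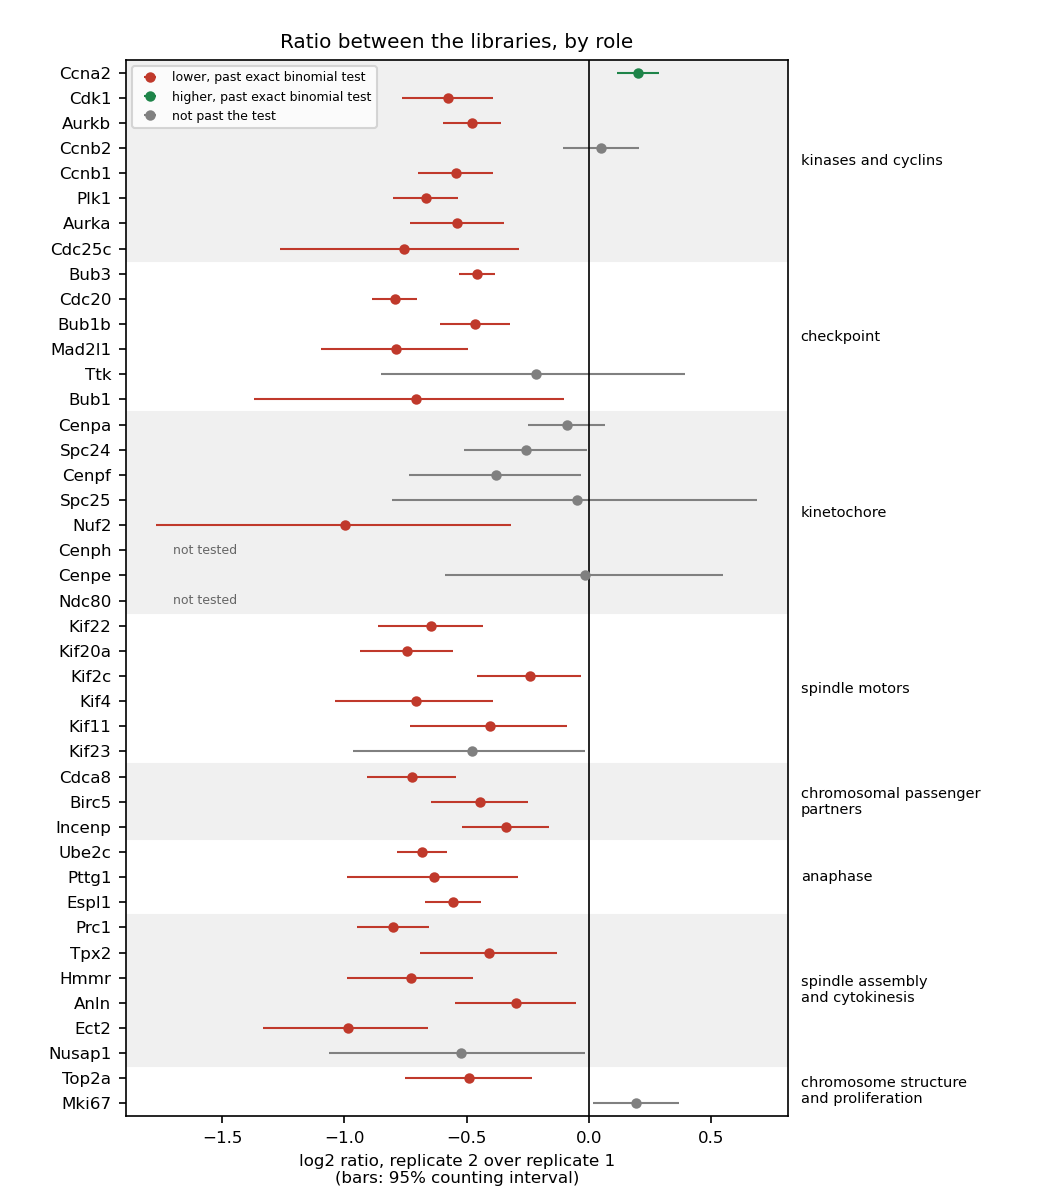
Log2 ratio of replicate 2 over replicate 1 for each member, grouped by role, with 95% counting intervals as bars. Of the 40 members tested, 29 lie below 0 past the exact binomial test, Ccna2 lies above 0 past it, and 10 did not pass it.

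The members' mean levels spanned 348.9-fold. Ube2c was at the top with 82.0 ± 29.9 TPM (SD, n = 2), followed by Ccna2 at 76.8 ± 19.6 TPM, Bub3 at 64.7 ± 16.0 TPM, Cdc20 at 51.7 ± 20.9 TPM, Cdk1 at 45.4 ± 12.7 TPM and Aurkb at 43.1 ± 12.9 TPM. At the bottom stood Cenph at 0.505 ± 0.544 TPM, Cenpe at 0.265 ± 0.0071 TPM and Ndc80 at 0.235 ± 0.106 TPM. In all, 15 members averaged at least 10 TPM and 7 averaged under 1 TPM, and 31 lay below 16.99 TPM, the median of protein-coding genes that reached 1 TPM. For 38 of the 41 pairs of neighbours in the order, the ranges of the libraries overlapped. The exceptions were Aurkb over Cenpa, Kif2c over Top2a and Top2a over Tpx2. Most members were lower in replicate 2, which widens these ranges together, so an overlap does not show that neighbours changed order. Spearman's correlation of the members' levels between the libraries was 0.98.

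**Figure D2:**
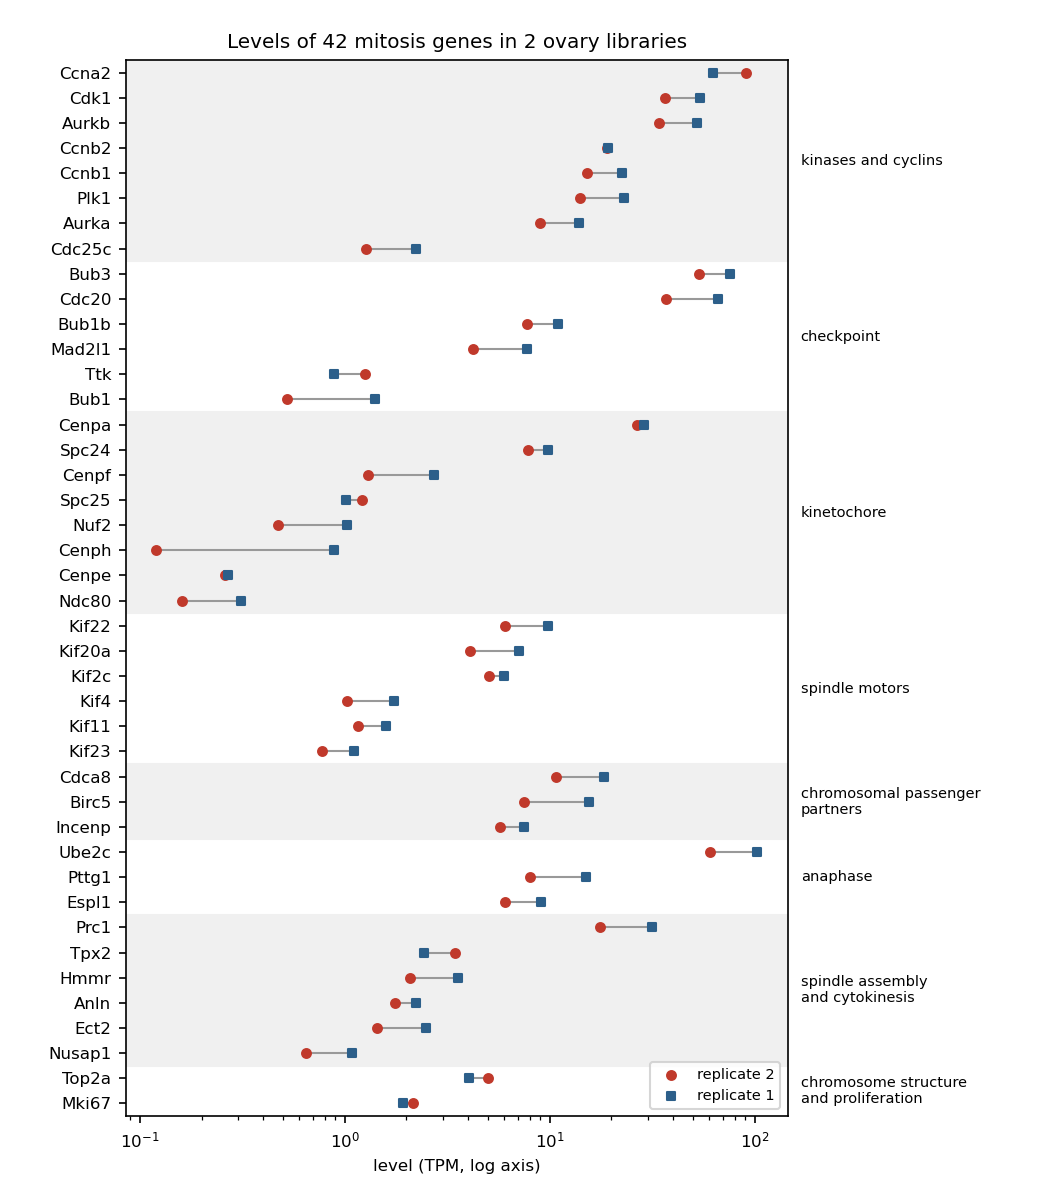
Level of each of the 42 members in TPM on a log axis, by role, in replicate 2 (circles) and replicate 1 (squares). Replicate 2 lies below replicate 1 in 36 members, and the kinetochore genes include the lowest levels.

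Among the kinases and cyclins, 6 of 8 were lower in replicate 2, beside 27% of all genes, and 1 was higher, beside 29.1%. The group's median log2 ratio was -0.54. Cdk1, the kinase that drives entry into mitosis, stood at 36.4 TPM in replicate 2 and 54.3 TPM in replicate 1, a log2 ratio of -0.58 (95% counting interval -0.76 to -0.39). Its partner Ccnb1, cyclin B1, had 15.2 TPM in replicate 2 and 22.4 TPM in replicate 1, a log2 ratio of -0.54. Its other partner Ccnb2, cyclin B2, had 19.0 TPM in replicate 2 and 19.1 TPM in replicate 1. Replicate 2 was thus lower for Ccnb1, while for Ccnb2 the log2 ratio of 0.05 (-0.11 to 0.21) did not pass the test.

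Cdc25c, a phosphatase that activates Cdk1, was the least abundant of this group, with 1.27 TPM in replicate 2 and 2.23 TPM in replicate 1 and a log2 ratio of -0.76. Plk1, the Polo kinase, had 14.1 TPM in replicate 2 and 23.2 TPM in replicate 1 (log2 ratio -0.67, exact binomial adjusted p = 4.18e-23). Aurka, the Aurora kinase of centrosomes and spindle poles, had 8.95 TPM in replicate 2 and 14.0 TPM in replicate 1, a log2 ratio of -0.54. Aurkb, the Aurora kinase of the chromosomal passenger complex, had 34.0 TPM in replicate 2 and 52.2 TPM in replicate 1, a log2 ratio of -0.48. All 4 of these genes were lower in replicate 2.

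Ccna2, cyclin A2, which acts from S phase into early mitosis, went the other way. The gene (chromosome 3, 36564865 to 36572150, minus strand, mm10) held 2081 counts in replicate 2 and 2230 in replicate 1, a log2 ratio of 0.20 after scaling for depth (0.11 to 0.29, exact binomial adjusted p = 2.01e-05). In TPM the gap was wider, at 90.7 TPM in replicate 2 and 62.9 TPM in replicate 1. The higher value went with the counts assigned to a transcript annotated as retaining an intron. Ccna2-202, of 856 bases, held 1256 counts in replicate 2 and 849 in replicate 1, a log2 ratio of 0.86 (exact binomial adjusted p = 3.16e-41 over 34023 transcripts). The protein-coding form Ccna2-201 held 825 counts in replicate 2 and 1377 in replicate 1, a log2 ratio of -0.44 (exact binomial adjusted p = 1.28e-11). The counts assigned to the coding form of cyclin A2 were thus lower in replicate 2, as most mitotic kinases and cyclins were. The forms share bases of exons 1 and 2, so reads there were divided by estimate, and that split was not tested. The share of the gene's TPM given to the retained-intron form was 86.6% in replicate 2 and 72.6% in replicate 1.

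The stretch where the forms part is printed to show what separates them. Both share exon 2 (chromosome 3, 36570736 to 36570979) and bases 36571638 to 36571964 of exon 1. Ccna2-202 reads on from exon 2 through 285 bases of the intron, while Ccna2-201 continues in exon 3 (36568980 to 36569089). Each line gives 60 bases of exon 2 in lower case and the next 60 in capitals, from GENCODE M21 transcripts on the minus strand of GRCm38. The Ccna2-202 stretch is chr3:36570676-36570795.
Ccna2-202: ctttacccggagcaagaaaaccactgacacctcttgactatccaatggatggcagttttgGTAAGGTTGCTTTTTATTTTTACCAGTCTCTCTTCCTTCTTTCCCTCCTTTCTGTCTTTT
Ccna2-201: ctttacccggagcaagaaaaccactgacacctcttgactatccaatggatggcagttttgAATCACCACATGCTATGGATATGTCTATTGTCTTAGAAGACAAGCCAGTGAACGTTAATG
The intron stretch opens with GT, the usual start of an intron, and is rich in T. Reads on intron bases cannot tell a stable retained-intron RNA from unspliced RNA, and their source was not tested. The counts of Ccna2-202 may also include reads on the shared exon bases.

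The checkpoint genes were lower in replicate 2 in 5 of 6 cases, beside 27% of all genes, and their median log2 ratio was -0.59. Cdc20 (chromosome 4, 118432901 to 118437352, minus strand) showed the largest of these differences, with 36.9 TPM in replicate 2 and 66.5 TPM in replicate 1. Its counts were 1382 in replicate 2 and 2952 in replicate 1, a log2 ratio of -0.80 (-0.89 to -0.70, exact binomial adjusted p = 2.21e-66). Mad2l1, which encodes the Mad2 protein that captures Cdc20, had 4.22 TPM in replicate 2 and 7.76 TPM in replicate 1, a log2 ratio of -0.79. Both were lower in replicate 2, and the counting interval of Mad2l1 (-1.10 to -0.49) was wider than that of Cdc20.

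Bub3, an adaptor that recruits the Bub kinases to kinetochores, was the most abundant checkpoint gene, with 53.4 TPM in replicate 2 and 76.01 TPM in replicate 1 (log2 ratio -0.46). Bub1b, which encodes BubR1 of the mitotic checkpoint complex, had 7.72 TPM in replicate 2 and 10.9 TPM in replicate 1 (log2 ratio -0.47). Bub1, a kinase at kinetochores, was far rarer, at 0.520 TPM in replicate 2 and 1.40 TPM in replicate 1, and its log2 ratio of -0.71 rests on 33 counts in replicate 2 and 67 in replicate 1. Ttk, the kinase at the head of the pathway, had 39 counts in replicate 2 and 56 in replicate 1. Its log2 ratio of -0.22 (-0.85 to 0.39) did not pass the test.

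The kinetochore genes were the least abundant group by median TPM. Of the 6 tested, 1 was called lower, beside 27% of all genes, and so few genes do not set the group apart from that share. All 6 log2 ratios were below 0, beside 50.8% of all genes, and their median was -0.18. Cenpa, the histone H3 variant that marks centromeres, had 26.6 TPM in replicate 2 and 28.9 TPM in replicate 1. This was well above the rest with all forms summed. Its coding forms alone held 7.89 TPM in replicate 2 and 6.42 TPM in replicate 1. Spc24, with 1 coding form, had 7.82 TPM in replicate 2 and 9.78 TPM in replicate 1. The Cenpa log2 ratio of -0.09 (-0.25 to 0.06) did not pass the test although 594 counts in replicate 2 and 779 in replicate 1 lay behind it. Cenpf, a large kinetochore protein, had 1.30 TPM in replicate 2 and 2.72 TPM in replicate 1 (log2 ratio -0.38, exact binomial adjusted p = 0.0509). Cenpe, a kinetochore kinesin, had 0.260 TPM in replicate 2 and 0.270 TPM in replicate 1. Cenph, part of the inner kinetochore network, had 3 counts in replicate 2 and 22 in replicate 1, a log2 ratio of -2.27 with a counting interval of -4.96 to -0.84 and no test.

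The Ndc80 complex, the kinetochore's grip on microtubules, has Ndc80, Nuf2, Spc24 and Spc25 as its subunits, and their RNA levels were unequal. Spc24 had 7.82 TPM in replicate 2 and 9.78 TPM in replicate 1. Spc25 had 1.22 TPM in replicate 2 and 1.01 TPM in replicate 1. Nuf2 had 0.470 TPM in replicate 2 and 1.03 TPM in replicate 1. Ndc80 itself had 0.160 TPM in replicate 2 and 0.310 TPM in replicate 1, from 8 counts in replicate 2 and 18 in replicate 1. The mean level of Spc24 was 37.4-fold that of Ndc80, an imprecise value because its divisor rests on so few counts. Nuf2 (chromosome 1, 169497934 to 169531464, minus strand) was the subunit called lower, with 24 counts in replicate 2 and 60 in replicate 1. Its log2 ratio of -0.996 (-1.77 to -0.32, exact binomial adjusted p = 0.0063) was the lowest of all tested members. Spc24, at -0.26 (exact binomial adjusted p = 0.0725), and Spc25, at -0.05, did not pass the test.

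The spindle motors are kinesins, and 5 of 6 were lower in replicate 2, beside 27% of all genes. The median log2 ratio of the motors was -0.56. Kif20a, which works at the central spindle in cytokinesis, had 4.10 TPM in replicate 2 and 7.10 TPM in replicate 1, a log2 ratio of -0.75 (exact binomial adjusted p = 8.34e-15). The chromokinesins Kif4 and Kif22, which bind chromosome arms, had log2 ratios of -0.71 and -0.65. Kif4 stood at 1.03 TPM in replicate 2 and 1.74 TPM in replicate 1, and Kif22 at 6.07 TPM in replicate 2 and 9.84 TPM in replicate 1. Kif11, which pushes spindle poles apart, had 1.16 TPM in replicate 2 and 1.58 TPM in replicate 1 (log2 ratio -0.41). Kif2c, which takes microtubules apart at centromeres, had the smallest called difference of the motors, with 5.05 TPM in replicate 2 and 5.99 TPM in replicate 1 (log2 ratio -0.24, exact binomial adjusted p = 0.0428). Kif23, a central spindle motor, had 61 counts in replicate 2 and 105 in replicate 1, and its log2 ratio of -0.48 (-0.96 to -0.02) missed the threshold (exact binomial adjusted p = 0.0718).

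Birc5, Incenp and Cdca8 are the partners of Aurkb in the chromosomal passenger complex. All 3 were lower in replicate 2, beside 27% of all genes. Cdca8, which encodes borealin, had 10.7 TPM in replicate 2 and 18.4 TPM in replicate 1, a log2 ratio of -0.72. Birc5, which encodes survivin, had 7.50 TPM in replicate 2 and 15.6 TPM in replicate 1, a log2 ratio of -0.45 in counts. Incenp, the scaffold of the complex, had 5.70 TPM in replicate 2 and 7.45 TPM in replicate 1, a log2 ratio of -0.34. Aurkb stood above each of its partners in both libraries.

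The anaphase genes were lower in replicate 2 in 3 of 3 cases, beside 27% of all genes. Ube2c (chromosome 2, 164769898 to 164778822, plus strand), the ubiquitin-conjugating enzyme that works with the anaphase-promoting complex, had 60.9 TPM in replicate 2 and 103 TPM in replicate 1. Its counts were 1145 in replicate 2 and 2261 in replicate 1, a log2 ratio of -0.68 (-0.79 to -0.58, exact binomial adjusted p = 2.43e-39). Pttg1, securin, had 8.01 TPM in replicate 2 and 14.9 TPM in replicate 1 (log2 ratio -0.63). Espl1, the separase that securin restrains, had 6.03 TPM in replicate 2 and 9.11 TPM in replicate 1 (log2 ratio -0.55). The Pttg1 ratio rests on 106 counts in replicate 2 and 203 in replicate 1, with a counting interval of -0.99 to -0.29. The 3 log2 ratios lay close together, but this interval is wider than the gap between them.

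Of the 6 genes of spindle assembly and cytokinesis, 5 were lower in replicate 2, beside 27% of all genes. The median log2 ratio of all 6 was -0.63. Ect2 (chromosome 3, 27097222 to 27153878, minus strand), the exchange factor that activates RhoA at the division plane, had 105 counts in replicate 2 and 257 in replicate 1, a log2 ratio of -0.99 (-1.33 to -0.66, exact binomial adjusted p = 4.03e-09). Prc1, which bundles microtubules at the spindle midzone, was the most abundant of the group, with 17.6 TPM in replicate 2 and 31.6 TPM in replicate 1 (log2 ratio -0.80). Hmmr, a spindle-associated hyaluronan-binding protein, had 2.09 TPM in replicate 2 and 3.58 TPM in replicate 1 (log2 ratio -0.73). These were among the larger differences of all members.

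Tpx2, which activates Aurka on the spindle, had 175 counts in replicate 2 and 286 in replicate 1, a log2 ratio of -0.41, yet its TPM was 3.46 in replicate 2 and 2.44 in replicate 1. Anln, the anillin scaffold of the contractile ring, had 1.76 TPM in replicate 2 and 2.22 TPM in replicate 1 (log2 ratio -0.30, exact binomial adjusted p = 0.0300). Nusap1, a microtubule-binding protein, had 50 counts in replicate 2 and 89 in replicate 1, and its log2 ratio of -0.52 (-1.06 to -0.02) missed the threshold. Its TPM, at 0.650 in replicate 2 and 1.09 in replicate 1, was among the lowest of the members.

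Top2a and Mki67 are the textbook proliferation markers of the set. Top2a, the topoisomerase that untangles chromosomes, had 197 counts in replicate 2 and 341 in replicate 1, a log2 ratio of -0.49. Mki67, the Ki-67 coat of mitotic chromosomes, had 521 counts in replicate 2 and 561 in replicate 1, and its log2 ratio of 0.19 (0.02 to 0.37) missed the threshold (exact binomial adjusted p = 0.0530). Both were modest in level, Top2a at 4.97 TPM in replicate 2 and 4.05 TPM in replicate 1, and Mki67 at 2.15 TPM in replicate 2 and 1.93 TPM in replicate 1. Mki67, the usual index of dividing cells, was thus among the 3 tested members with a ratio above 0, beside Ccna2 and Ccnb2.

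Transcript forms set TPM apart from counts in some members. The deposited gene TPM divides by a length averaged over forms, so a shift toward a short form raises TPM without more reads. The sign of the TPM ratio differed from that of the count ratio in Ttk, Spc25, Tpx2 and Top2a. It also differed in Ccnb2, which has 1 form of the same length in both libraries and ratios near 0. Of the members' protein-coding forms with a mean count of at least 20, 35 of 54 (64.8%) were lower in replicate 2, beside 28.9% of all 34023 transcripts, and 1 was higher, beside 29.4%. Of 14 other forms, 4 were lower and 2 were higher, beside the same shares of all transcripts. The median log2 ratio was -0.57 for the coding forms and -0.43 for the other forms, beside -0.01 for all transcripts. Summed over coding forms alone, a measure chosen after seeing the data and given with no test, TPM was lower in replicate 2 in 38 of the 40 tested members (95%), beside 57% of 14765 genes.

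Birc5 and Top2a show shifts between forms. Birc5-201 held 73.9 counts in replicate 2 and 259 in replicate 1, a log2 ratio of -1.50 (exact binomial adjusted p = 6.16e-17), while Birc5-202 held 265 counts in replicate 2 and 310 in replicate 1, a log2 ratio of 0.07 that did not pass the test. The difference of the survivin gene thus sat with its Birc5-201 form. Top2a-201, the coding form, held 139 counts in replicate 2 and 307 in replicate 1 (log2 ratio -0.84), and the processed transcript Top2a-207 held 36.8 counts in replicate 2 and 23.6 in replicate 1 (log2 ratio 0.89). Cyclin B1 divided likewise, with 138 counts of Ccnb1-201 in replicate 2 and 384 in replicate 1 (log2 ratio -1.17), against 215 counts of Ccnb1-202 in replicate 2 and 264 in replicate 1 (log2 ratio 0.0029). The authors' posterior SD of the Ccnb1-201 count was 27.7 in replicate 2 and 45.3 in replicate 1. The assignment of reads between near-identical forms is an estimate. For Nusap1-201 and Nusap1-202, whose log2 ratios were 2.71 and -2.30, the authors' posterior SD of the count was 9.33 for each in replicate 2, beside counts of 36.6 and 13.4.

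Forms not annotated as protein-coding took over 25% of the gene's TPM in both libraries in 7 members. In Cdk1 they took 76.1% in replicate 2 and 73.2% in replicate 1, and in Cenpa 70.3% in replicate 2 and 77.8% in replicate 1. In Ccnb1 they took 54.2% in replicate 2 and 53.3% in replicate 1, and in Aurkb 46.6% in replicate 2 and 51.6% in replicate 1. For Cdk1 most of it was Cdk1-203, a retained-intron form of 378 bases, with 24.4 TPM in replicate 2 and 33.9 TPM in replicate 1 from 104 counts in replicate 2 and 151 in replicate 1. The main coding form of Cdk1, Cdk1-202, held more counts, 216 in replicate 2 and 426 in replicate 1, yet fewer TPM, 8.40 in replicate 2 and 14.0 in replicate 1. The TPM order of Cdk1, Ccna2, Aurkb and Cenpa among the members thus leans on forms not annotated as protein-coding.

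**Figure D3:**
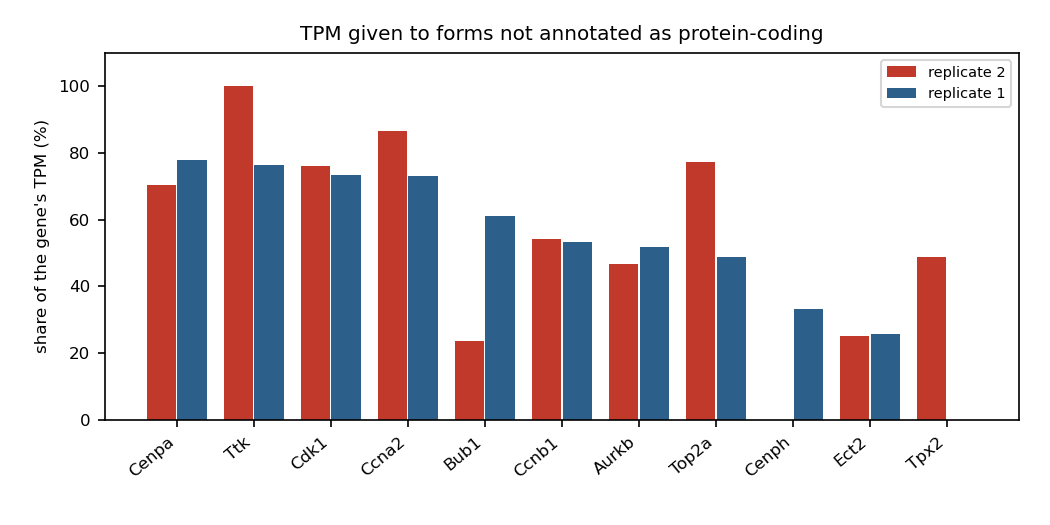
Share of each gene's TPM, in percent, given to transcripts not annotated as protein-coding, for members where it passed 25% in at least 1 library, in replicate 2 (left bar) and replicate 1 (right bar). Ccna2 has 86.6% in replicate 2 and 72.9% in replicate 1, and Cdk1 has 76.1% in replicate 2 and 73.2% in replicate 1.

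Level went with base composition among the members. Across the 42 genes, Spearman's correlation of mean TPM with the GC content of the transcripts was 0.68, beside 0.38 over 13635 protein-coding genes that reached 1 TPM. Its correlation with transcript length was -0.54 among the members and -0.22 over the same protein-coding genes. The members were not cut at 1 TPM, and 7 averaged under it, so the sets are unlike and their correlations cannot be compared in size. TPM is also divided by length, which enters the length correlation. The 14 members under 45% GC, which include Bub1, Nuf2, Kif11 and Ndc80, had a median of 1.24 TPM. The 12 members over 50% GC, which include Plk1, Cdc20, Ube2c and Aurkb, had a median of 13.0 TPM. All points share both libraries, and these correlations are descriptions. The ratio between the libraries had a correlation of 0.08 with GC content over the 40 tested members and 0.15 over 15849 genes.

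**Figure D4:**
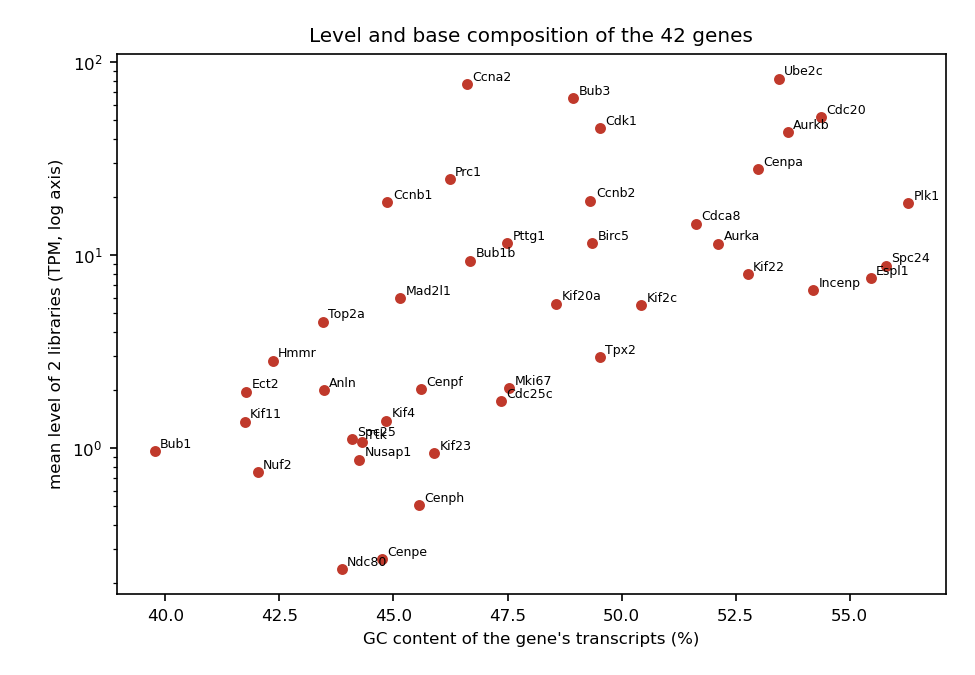
Mean level of each member over the 2 libraries, in TPM on a log axis, against the GC content of its transcripts in percent. Members under 45% GC have a median of 1.24 TPM and those over 50% GC a median of 13.0 TPM.

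Some members lie over other genes. The spans of 8 members (Ccna2, Bub3, Cdc20, Kif20a, Kif4, Cdca8, Prc1 and Nusap1) share bases with an opposite-strand gene that reached 1 TPM in both libraries. No source used here gives the strand setting of the counts, so reads of the partners may be mixed in these members. The whole span of Bub3 (11674 bases) is shared with Fgfr2, which stood at 35.8 TPM in replicate 2 and 47.2 TPM in replicate 1. The whole span of Prc1 (21810 bases) is shared with Rccd1, at 15.8 TPM in replicate 2 and 19.5 TPM in replicate 1. Kif20a shares 2327 bases with Cdc23, a subunit of the anaphase-promoting complex that stood at 34.8 TPM in replicate 2 and 62.8 TPM in replicate 1. Ccna2 shares 863 bases with Exosc9 at its 3′ end, away from the exon of Ccna2-202 that holds the intron.

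Other genes of cell division were set beside the members, from lists chosen with earlier results of these data known. Of 83 other mitosis genes, 76 were tested. Among them 44 (57.9%) were lower in replicate 2, beside 27% of all genes, and 9 were higher, beside 29.1%. Their median log2 ratio was -0.35. Hjurp, the chaperone that loads Cenpa, was the most abundant of the centromere list, with 94.8 TPM in replicate 2 and 155 TPM in replicate 1 (log2 ratio -0.63). Cdca3, a trigger of mitotic entry, had 19.9 TPM in replicate 2 and 39.3 TPM in replicate 1 (log2 ratio -0.95). Cks2, a small partner of Cdk1, had 27.5 TPM in replicate 2 and 51.0 TPM in replicate 1 (log2 ratio -0.78). Not all moved that way: the condensin subunit Smc4 had 21.4 TPM in replicate 2 and 7.78 TPM in replicate 1 (log2 ratio 0.94), and Anapc11 of the anaphase-promoting complex had a log2 ratio of 0.29.

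By function, the same shares of all genes, 27% lower and 29.1% higher, stand beside each list. The other checkpoint and anaphase-promoting complex genes had 10 of 16 lower and 4 higher, with a median of -0.20. The other kinetochore and centromere genes had 9 of 19 lower and 0 higher (median -0.35), and the other kinases and regulators 9 of 17 lower and 3 higher (median -0.35). The other motors, spindle and cytokinesis genes had 11 of 15 lower and 1 higher (median -0.46), and condensin and cohesion 5 of 9 lower and 1 higher (median -0.43). The direction of the medians was the same in every one of these lists.

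Of 33 DNA replication genes tested, 26 (78.8%) were lower in replicate 2, beside 27% of all genes, and 0 were higher, beside 29.1%. Their median was -0.35. Pcna, the sliding clamp of DNA polymerases, had 74.3 TPM in replicate 2 and 96.4 TPM in replicate 1 (log2 ratio -0.32), and Mcm7 of the replicative helicase had 45.6 TPM in replicate 2 and 63.6 TPM in replicate 1 (log2 ratio -0.46). Another list held 15 genes for D-type cyclins, their kinases, cell cycle inhibitors and retinoblastoma proteins. Among these, 3 (20%) were lower, beside 27% of all genes, and 9 (60%) were higher, beside 29.1%. The median was 0.25. Ccnd3 had 184 TPM in replicate 2 and 149 TPM in replicate 1 (log2 ratio 0.45), and the inhibitor Cdkn1a had 66.1 TPM in replicate 2 and 51.4 TPM in replicate 1 (log2 ratio 0.35). Cdk4, the partner of the D-type cyclins, had a log2 ratio of -0.22. The lists of mitosis and replication genes thus had medians below 0 while that of D-type cyclins and inhibitors had a median above 0.

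Cell type markers were compared in the same way, beside 27% of all genes called lower in replicate 2 and 29.1% called higher. Of 12 granulosa markers, 8 were lower and 4 higher in replicate 2, with a median of -0.22 and a summed level of 7584 TPM in replicate 2 and 8858 TPM in replicate 1. Of 13 oocyte markers tested, 6 were lower and 2 higher (median -0.19), and all 15 listed summed to 370.1 TPM in replicate 2 and 469.5 TPM in replicate 1. Of 9 theca and interstitial markers, 5 were lower and 3 higher (median -0.12), summing to 2914 TPM in replicate 2 and 3134 TPM in replicate 1. These lists had smaller median differences than the mitosis genes, but their markers ran both ways. The log2 ratio spanned -0.65 to 0.26 over granulosa markers and -0.71 to 0.39 over tested oocyte markers. Over theca and interstitial markers it spanned -0.45 to 0.77. Such a median does not measure the amount of a cell type.

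Lists of other cell types varied in direction, again beside 27% of all genes called lower and 29.1% called higher. All 8 surface epithelium markers were higher in replicate 2 (median 0.48), summing to 995.5 TPM in replicate 2 and 730.0 TPM in replicate 1. All 5 erythroid markers tested were higher (median 0.91), and the list summed to 2254 TPM in replicate 2 and 1086 TPM in replicate 1. Oviduct epithelium markers had 2 of 7 lower and 1 higher (median 0.14, sums 798.4 TPM in replicate 2 and 876.2 TPM in replicate 1). Endothelium markers had 3 of 7 lower and 2 higher (median -0.05, sums 925.4 TPM in replicate 2 and 905.1 TPM in replicate 1). Lymphocyte markers had 1 of 5 tested lower and 0 higher (median -0.20), and all 9 summed to 11.3 TPM in replicate 2 and 11.5 TPM in replicate 1. The part of the cell makeup in the lower level of the mitosis genes was not tested.

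**Figure D5:**
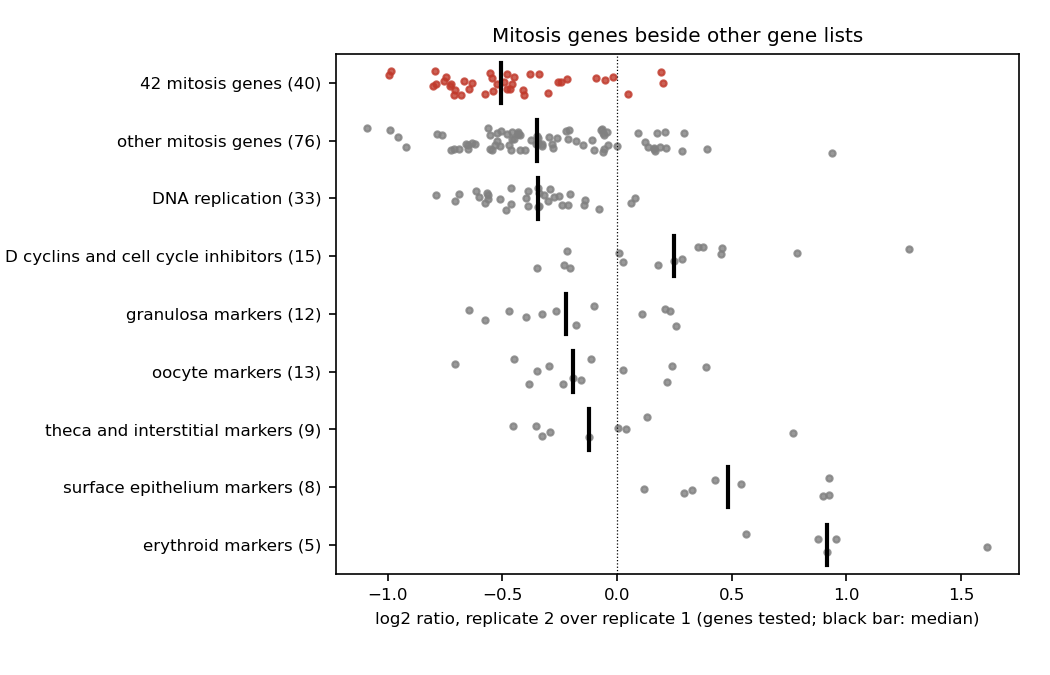
Log2 ratio of replicate 2 over replicate 1 for each tested gene of the mitosis genes and of other lists, 1 point per gene, with the median as a black bar and the number tested in brackets. The median is -0.51 for the mitosis genes, -0.35 for the other mitosis genes, 0.25 for D-type cyclins and inhibitors and 0.91 for erythroid markers.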

How the data were processed

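Poly(A)+ RNA of mouse ovary was sequenced in 2 libraries of 1 group. The authors deposited expected counts (estimated reads, which need not be whole) and TPM per gene and transcript on mm10 with GENCODE M4, per the notes with the files, and each transcript's percent of its gene's TPM. No source used here names the aligner or quantifier, and the junction and contig tables on mm9 were not used.

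Names came from GENCODE M21 (42462 of 43346 identifiers matched). The 96 spike-ins took 0.986% of counts in replicate 2 and 0.764% in replicate 1, and were left out of library sizes, as were 26248 numeric identifiers and phiX, which held 0 counts. Expected counts were rounded, a mean count of 20 was the minimum, and TMM scaling came from edgeR 4.0.16 (R 4.3.3). Log2 ratios used a prior count of 1. Since edgeR's quasi-likelihood test has no residual degrees of freedom here, each gene had an exact binomial test (two-sided, Benjamini-Hochberg at 0.05). It was run with Python 3.11.15 and scipy 1.17.1 and checked on simulated libraries. Apart from genes changed on purpose, those libraries differed by counting error alone. The check therefore does not cover other spread between libraries and lends no support to the calls. Intervals cover counting error only. A gene at 0 counts allows up to 3 counts, 0.0859 CPM in replicate 2 and 0.0730 CPM in replicate 1.

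All 42 members are named, with the 3 highest genes of each other list as the pool for examples and Amh, Foxl2, Inha, Zp3 and Gdf9 as tissue markers. Members and lists were chosen with earlier results of these data known. The rule names 4 role groups, and 14 members outside them were placed in 4 more by known role. Alternatives changed the scaling, the count filter, the unit, the GC trend and the transcripts summed.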

Additional observations from a re-analysis of the deposited data

How the results depend on the processing

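The count of members lower in replicate 2 was 27 with a mean count of at least 100, where fewer members were tested. It was 38 on spike-in totals, which lowered the ratios of all genes. Under the other scalings and filters it lay between these values. The share of all genes called lower was not worked out under these settings, so the counts have no background beside them. Scaling by spike-in totals moved the median of all genes by -0.43 and the medians of the mitosis groups with it: -0.94 for all members, -0.98 for kinases and cyclins, -1.02 for checkpoint genes, -0.99 for motors, -0.88 for passenger partners, -1.07 for anaphase genes, -1.06 for spindle assembly and cytokinesis and -0.58 for Top2a and Mki67. Under it 34 members were over 1.5-fold lower, beside 32.2% of all genes, 0 were higher in the exact test, beside 7.16%, and Ccna2 (-0.24), Ccnb2 (-0.38) and Mki67 (-0.24) changed sign. With DESeq2 1.42.0 size factors 2 members, Ccna2 and Mki67, were higher, beside 29.8% of all genes. On log2(TPM + 1), with no test, the median was -0.72 for passenger partners, -0.75 for anaphase genes and 0.17 for Top2a and Mki67, and Tpx2 (0.37) and Top2a (0.24) changed sign. Over coding transcripts alone, an alternative chosen after seeing the data, Ccna2 was -0.45 and the passenger partners -0.72. The median level of the members was 5.01 TPM without replicate 1 and 7.28 TPM without replicate 2. Counting only the bases before the start, TTTGAA or TTTAAA stood in 17 of 35 promoters (48.6%), against 25.5% of all promoters. Nuf2 and Bub1 were called lower on fewer than 100 counts in each library, a depth at which Ttk, Cenpe, Spc25 and Nusap1 did not pass. No paired analysis was possible because the design holds 1 group.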
